A study of Homo sapiens and Mus musculus with 10 samples.

Results

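Melanocyte identity and pigment genes were followed in A375 cells, an established human melanoma line, by taking 10 listed gene symbols from the 63140 gene rows of the human expression table. The 10 were the transcription factor genes MITF and SOX10, the pigment and melanosome genes PMEL, MLANA, TYR and DCT, the melanosome traffic genes RAB27A and RAB38, the melanocortin receptor gene MC1R and the glycoprotein gene GPNMB, and all 10 symbols had a row. The treated cells had received 80 µg/mL of LL-37, a host defence peptide released from the cathelicidin precursor, over 24 h (LL-37, n = 3), and the untreated cells were kept for the same time (Ctrl, n = 3). The series text gives both groups as biological triplicates, and the labels name no genetic change in either. Expression was given as TPM, transcript abundance corrected for transcript length and set against a fixed library total, so that levels can be set side by side between genes while sequencing depth is unknown. Of the 10 libraries in the series, the 4 from tumour-bearing mouse skin were not analysed here.

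Melanocytes make pigment in melanosomes, organelles that branch off from the endosomal and lysosomal system. SOX10, a factor of the neural crest lineage, switches on MITF, and MITF in turn switches on the genes of the fibrils, enzymes and carriers of the melanosome by binding short DNA motifs near their starts. MC1R, the receptor for melanocyte-stimulating hormone, raises cyclic AMP and acts on MITF through CREB. Melanoma cells can hold SOX10 while having lost much of MITF and of the pigment programme.

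The bases before the RefSeq starts of the members were searched for short motifs. These were CATGTG, the core of the M-box that MITF binds, CACGTG, a related E-box, and TGACGTCA, the cyclic AMP response element. The RefSeq table (GRCh38.p14) held 14 starts of 7 members, namely MITF, GPNMB, MLANA, TYR, DCT, RAB27A and MC1R, and the 250 bases before each start were read on both strands. The motif CATGTG, or CACATG when read on the other strand, occurred 7 times before 4 starts, those of TYR, DCT, GPNMB and MC1R. Over all 35116 starts in the table, 9.42% had it. For MC1R, no annotated transcript of the gene (GENCODE 29) began within 50 bases of the RefSeq start. No member start had CACGTG, which 6.34% of all starts had. None of the motifs overlapped another in these windows. The windows of up to 30 bases around the matches are shown because TYR, DCT and GPNMB share this motif and differed widely in level, and the motif stands in capitals.
TYR, chr11:89177759-89177788, plus strand: agaaaagtcagtCATGTGcttttcagagga
TYR, chr11:89177851-89177874, plus strand: tctcagccaagaCATGTGataatc
DCT, chr13:94479880-94479909, minus strand: gtttggctggagCACATGagcccagataaa
DCT, chr13:94479799-94479828, minus strand: tgcactttgggtCATGTGctaatgatgagg
GPNMB, chr7:23246640-23246669, plus strand: gtgagtcataagCACATGagttgtaagagg
GPNMB, chr7:23246701-23246730, plus strand: gcttaataccatCACATGatcctccccgag
MC1R, chr16:89918786-89918815, plus strand: tcacgcccccggCATGTGgccgccctcagt

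The 250 bases before the MITF start used by the melanocyte-type transcript are shown whole, because cyclic AMP is known to act on MITF through this window. Sites of SOX10 were not searched for. It held TGACGTCA, in capitals, from -152 to -145 relative to the start at position 69936592. Of all starts in the table, 1.65% held this element. The other 2 MITF starts in the table held none of the 3 motifs.
MITF, chr3:69936342-69936591, plus strand: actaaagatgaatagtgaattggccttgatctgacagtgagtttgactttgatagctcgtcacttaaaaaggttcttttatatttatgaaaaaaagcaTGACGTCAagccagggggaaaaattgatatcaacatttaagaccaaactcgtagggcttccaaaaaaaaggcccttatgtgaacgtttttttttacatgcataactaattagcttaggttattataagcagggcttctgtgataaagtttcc

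A match of letters is a description of the sequence and says nothing of whether a factor sat there in these cells.

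The A375 libraries held SOX10 and GPNMB at high levels, MITF at a low level, and the pigment enzymes at or near 0. At a level of at least 1 TPM in all 3 Ctrl libraries, 6 of the 10 members were expressed, namely SOX10, GPNMB, RAB38, MC1R, MITF and RAB27A. Mean Ctrl levels were 283.1 TPM for SOX10 and 264.4 TPM for GPNMB, which ranked 371 and 394 among all rows of the table and whose Ctrl ranges overlapped. RAB38 followed at 28.2 TPM, MC1R at 12.3 TPM, MITF at 5.08 TPM and RAB27A at 3.89 TPM, with no overlap of Ctrl ranges between neighbours in this order. PMEL and DCT, at 0.703 and 0.653 TPM, overlapped each other and lay below 1 TPM on average. MLANA and TYR were the lowest. In RNA from a whole culture, fewer cells that express a gene and less of its RNA per cell cannot be told apart. With a minimum of 0.1 TPM in place of 1 TPM, 8 members were expressed, and with 5 TPM there were 4.

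TYR, the enzyme that starts melanin synthesis, was listed at 0 TPM in all 6 libraries. MLANA, a melanosome membrane protein gene and a common melanoma antigen, was listed at 0 TPM in all LL-37 libraries and at 0, 0 and 0.02 TPM in the Ctrl libraries. The table is rounded to 0.01 TPM. DCT, which acts after TYR on the way to dark melanin, was 0.74, 0.27 and 0.19 TPM in the LL-37 libraries and 0.73, 0.6 and 0.63 TPM in the Ctrl libraries. The groups overlapped, because LL-37 replicate 1 held the highest value of the 6. PMEL, the gene of the fibrils on which pigment is laid down, was 0.12, 0.37 and 0.48 TPM in the LL-37 libraries and 0.29, 1.25 and 0.57 TPM in the Ctrl libraries. Here Ctrl replicate 2 stood highest and the groups overlapped. These 4 members did not reach 1 TPM in at least 3 libraries and were not tested for a change. PMEL lies across CDK2, a cell cycle kinase gene on the opposite strand, which was 15.2 to 31.0 TPM in the LL-37 libraries and 21.7 to 25.9 TPM in the Ctrl libraries. The library kit marks strand, but whether strand was used in quantification is not given in the sources used here, so that PMEL values below 1 TPM are uncertain.

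**Figure D1:**
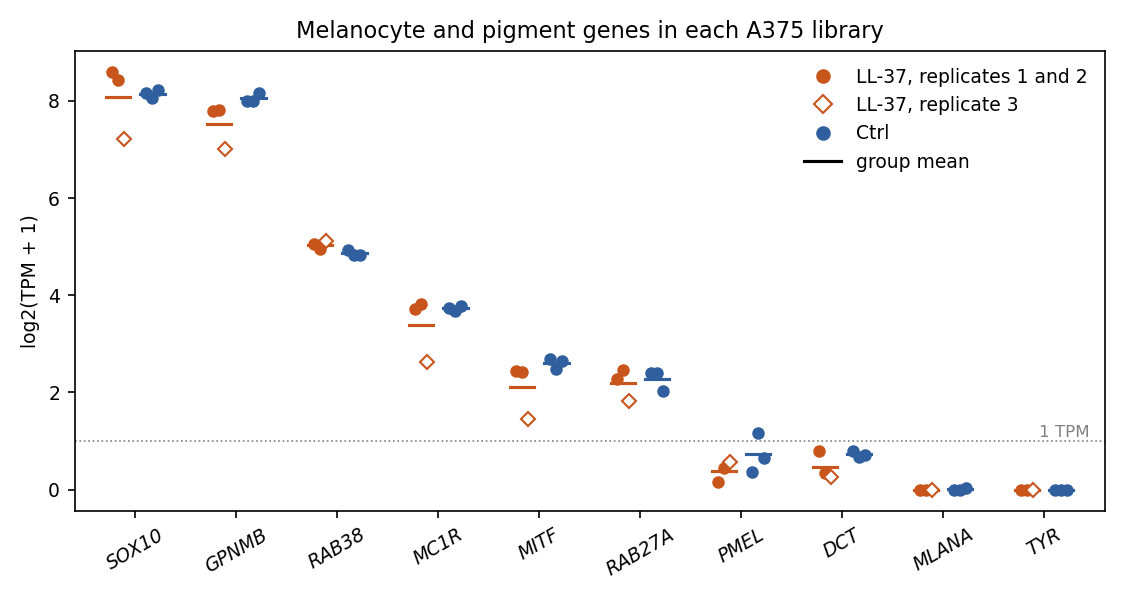
Level of each of the 10 members as log2(TPM + 1) in every A375 library, with LL-37 (orange, replicate 3 as an open diamond) to the left of Ctrl (blue) and group means as bars. SOX10 and GPNMB stand highest, PMEL and DCT around or below 1 TPM, and MLANA and TYR at or next to 0. The open diamond is the lowest of the 6 libraries for SOX10, GPNMB, MC1R, MITF and RAB27A.

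The lineage of the cells was checked against marker lists, since the extraction protocol in the labels speaks of keratinocytes while all other labels name A375. Beside SOX10, the melanoma markers CSPG4, MCAM, S100A1 and S100B were 56.1 to 240.6, 52.5 to 115.6, 55.5 to 62.5 and 27.1 to 38.2 TPM in the LL-37 libraries and 151.2 to 172.4, 100.04 to 122.8, 62.96 to 82.7 and 34.99 to 37.3 TPM in the Ctrl libraries. The same lineage list held MITF, PMEL, DCT, MLANA and TYR, given above, which did not share these levels. MITF was low, PMEL and DCT averaged below 1 TPM in both groups, and MLANA and TYR were at or next to 0. Of 7 keratinocyte markers, 2 were tested (KRT10 and KRT14), and KRT1, DSG3 and TP63 were listed at 0 in all libraries. Their summed level was 19.6 to 25.9 TPM with LL-37 and 26.5 to 27.8 TPM in Ctrl, nearly all of it KRT10. Fibroblast markers (6) summed to 3.34 to 7.97 and 7.13 to 8.02 TPM, leukocyte markers (5, MS4A1 at 0) to 22.6 to 41.6 and 35.8 to 42.8 TPM, nearly all of it CD68, and endothelial markers (4) to 0.94 to 3.27 and 2.08 to 2.56 TPM in LL-37 and Ctrl libraries. KRT14 was 1.15 to 1.98 TPM with LL-37 and 1.43 to 1.66 TPM in Ctrl. The part of other cell types in the values below was not tested.

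The third LL-37 library differed from the other 5 of A375. In LL-37 replicate 3, 12991 genes reached 1 TPM, where the others had 14304 to 14555, and it was the lowest library of the 6 for 73.5% of the 14399 tested genes and the highest for 10.4%. The median log2 change of all tested genes, LL-37 minus Ctrl, was -0.20 with this library and 0.00 without it. Its level also depended on transcript length: against the mean of LL-37 replicates 1 and 2, the median log2 difference was -0.09 in the shortest of 5 bins of transcript length and -1.07 in the longest. Each member is therefore given with and without LL-37 replicate 3.

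No member passed the threshold with LL-37. A gene entered the limma test on log2(TPM + 1) if it reached 1 TPM in 3 or more of the 6 libraries, and a Benjamini-Hochberg adjusted p under 0.05 over all 14399 was the threshold. Of the 6 members that were tested, 0 passed, as did 0% of all tested genes, with a smallest adjusted p of 0.197. An unadjusted p under 0.05 was reached by 0 members and by 2.52% of tested genes (0.66% higher and 1.86% lower with LL-37). The median log2 change was -0.22 over the 6 members, close to the -0.20 of all tested genes. Without LL-37 replicate 3, 0 members passed against 0.118% of all tested genes. In this setting 2 members, SOX10 and GPNMB, had an unadjusted p under 0.05, which 9.01% of tested genes had (4.92% higher and 4.1% lower), and the median log2 change was 0.07 over the members and 0.00 over all tested genes.

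For 3 of the 6 tested members the LL-37 and Ctrl ranges were separate, with RAB38 higher and MITF and GPNMB lower with LL-37. This held for 12.4% of all tested genes, 2.13% higher and 10.3% lower. With LL-37 replicate 3 left out it held for 4 of the 6, with SOX10 and RAB38 higher and MITF and GPNMB lower, against 25.1% of all tested genes, 12.3% higher and 12.9% lower. With so few members, these counts describe the list and are no test of it.

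SOX10 was 387.3 and 343.2 TPM in LL-37 replicates 1 and 2 and 147.0 TPM in LL-37 replicate 3, against 287.3, 265.7 and 296.4 TPM in the Ctrl libraries. LL-37 replicates 1 and 2 thus lay above every Ctrl library and LL-37 replicate 3 lay below every one. Over all libraries the means were 292.5 ± 127.9 TPM with LL-37 and 283.1 ± 15.8 TPM in Ctrl (SD, n = 3 each). This was a log2 change of -0.07 with an SE of 0.35 (limma, adjusted p = 0.926). Without LL-37 replicate 3 the mean with LL-37 was 365.2 ± 31.2 TPM (SD, n = 2). The log2 change was then 0.37 ± 0.07 (SE), with a 95% interval of 0.20 to 0.53 before adjustment over genes and a limma adjusted p of 0.134. The direction of SOX10 therefore rested on LL-37 replicate 3, and it also turned with median-of-ratios scaling of all 6 libraries, to a log2 change of 0.17. SOX10 (chromosome 22, 37970686 to 37987422, minus strand, GRCh38) lies inside POLR2F, an RNA polymerase subunit gene on the other strand. POLR2F was 207.4, 210.3 and 327.0 TPM in the LL-37 libraries and 221.9, 233.1 and 203.3 TPM in the Ctrl libraries, so that its pattern ran against that of SOX10 in LL-37 replicate 3.

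MITF (chromosome 3, 69739435 to 69968337, plus strand) was 4.4, 4.35 and 1.75 TPM in the LL-37 libraries and 5.45, 4.57 and 5.23 TPM in the Ctrl libraries. All 3 LL-37 libraries lay below all 3 Ctrl libraries, LL-37 replicates 1 and 2 close under Ctrl replicate 2 and LL-37 replicate 3 far lower. The means were 3.5 ± 1.52 TPM with LL-37 and 5.08 ± 0.458 TPM in Ctrl (SD, n = 3 each). The MITF log2 change was -0.50 with an SE of 0.30 (limma, adjusted p = 0.739). It was -0.32 with median-of-ratios scaling, -0.28 with quantile normalization and -0.26 with a pseudocount of 5 in place of 1. Leaving out LL-37 replicate 3 gave -0.18 ± 0.12 (SE; limma, adjusted p = 0.780), with a 95% interval of -0.46 to 0.11. The row of MITF joins 20 transcripts, so that the melanocyte-type transcript cannot be told apart from the others.

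GPNMB (chromosome 7, 23235967 to 23275108, plus strand), a membrane glycoprotein gene of melanosomes and lysosomes and a known MITF target, was 219.3, 223.2 and 127.5 TPM in the LL-37 libraries and 253.9, 255.1 and 284.1 TPM in the Ctrl libraries. Each LL-37 library lay below each Ctrl library, with LL-37 replicate 3 the lowest. The means were 190.0 ± 54.2 TPM with LL-37 and 264.4 ± 17.1 TPM in Ctrl (SD, n = 3 each). For GPNMB the log2 change was -0.52 with an SE of 0.23 (limma, adjusted p = 0.739). Relative to the median of all tested genes this was -0.32, and median-of-ratios scaling gave -0.27. It was -0.25 ± 0.07 (SE) once LL-37 replicate 3 was left out, with a 95% interval of -0.41 to -0.10 before adjustment and a limma adjusted p of 0.249. GPNMB was lower with LL-37 in every alternative that was run. Its bases before the start carry the same CATGTG core as those of TYR and DCT shown above, which were at 0 (TYR) and below 1 TPM (DCT) in all 6 libraries.

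RAB38 (chromosome 11, 88113242 to 88175467, minus strand), which with RAB32 carries pigment enzymes to the maturing melanosome, was 32.2, 29.9 and 33.6 TPM in the LL-37 libraries and 29.5, 27.6 and 27.5 TPM in the Ctrl libraries. The groups did not overlap, though LL-37 replicate 2 lay close above Ctrl replicate 1, and LL-37 replicate 3 was here the highest of the 6. The means were 31.9 ± 1.84 TPM with LL-37 and 28.2 ± 1.17 TPM in Ctrl (SD, n = 3 each). The RAB38 log2 change was 0.17 with an SE of 0.13 (limma, adjusted p = 0.739). It was 0.14 ± 0.08 without LL-37 replicate 3 (SE; limma, adjusted p = 0.714). Relative to the median of all tested genes, the RAB38 change was 0.37 over all libraries and 0.14 without LL-37 replicate 3. All libraries together gave 0.02 with the length trend of each library removed and 0.41 with median-of-ratios scaling. The median of all tested genes was -0.20 with length trends removed and 0.00 with that scaling. RAB38 has the shortest transcript of the tested members, 1465 bases.

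MC1R (chromosome 16, 89912119 to 89920977, plus strand) was 12.2, 13.2 and 5.14 TPM in the LL-37 libraries and 12.3, 11.9 and 12.7 TPM in the Ctrl libraries. LL-37 replicates 1 and 2 lay among or just above the Ctrl libraries, and LL-37 replicate 3 lay below them. The log2 change was -0.34 ± 0.33 (SE; limma, adjusted p = 0.739) over the 6 libraries and 0.04 ± 0.09 (SE; limma, adjusted p = 0.957) without LL-37 replicate 3, with a 95% interval of -0.17 to 0.26. With all libraries it was -0.13 under median-of-ratios scaling and -0.083 under quantile normalization. MC1R overlaps TCF25 on the same strand, and reads of the shared stretch may be split between them. TCF25 was 79.1, 85.5 and 46.9 TPM in the LL-37 libraries and 82.8, 82.7 and 88.0 TPM in the Ctrl libraries.

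RAB27A (chromosome 15, 55202966 to 55319113, minus strand), which ties mature melanosomes to the actin motor and also acts in exosome release, was 3.86, 4.52 and 2.52 TPM in the LL-37 libraries and 4.31, 4.31 and 3.06 TPM in the Ctrl libraries. The groups overlapped, since Ctrl replicate 3 lay below LL-37 replicates 1 and 2. The log2 change was -0.09 ± 0.24 (SE; limma, adjusted p = 0.852) over the 6 libraries and 0.09 ± 0.16 (SE; limma, adjusted p = 0.932) without LL-37 replicate 3, with a 95% interval of -0.28 to 0.46. It overlaps PIGBOS1 on the same strand, which was 12.8 to 17.5 TPM in the LL-37 libraries and 14.7 to 16.5 TPM in the Ctrl libraries.

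**Figure D2:**
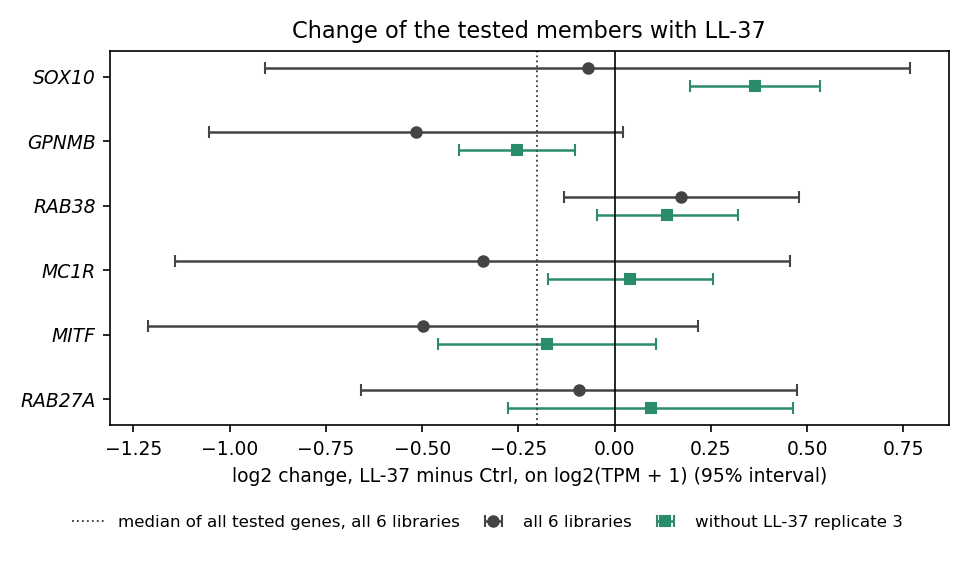
Log2 change of the 6 tested members, LL-37 minus Ctrl, on the log2(TPM + 1) scale, with 95% limma intervals for all 6 libraries (grey circles) and without LL-37 replicate 3 (green squares). With all libraries every interval spans 0, and without that library those of SOX10 and GPNMB do not, before adjustment over genes. The dotted line marks the median of all tested genes, -0.20.

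The distance of LL-37 replicate 3 from the other LL-37 libraries differed between members. On the log2(TPM + 1) scale, LL-37 replicate 3 minus the mean of replicates 1 and 2 was -1.30 for SOX10, -1.15 for MC1R, -0.97 for MITF, -0.79 for GPNMB, -0.56 for RAB27A and 0.11 for RAB38. SOX10, MC1R, GPNMB and RAB27A, with longest transcripts of 2862 to 3637 bases, were in the middle length bin, whose median difference was -0.63 with quartiles of -0.97 and -0.27. SOX10 and MC1R thus lay below the lower quartile of genes of like length. MITF, with 4814 bases, was in the next longer bin, with a median of -0.85, and RAB38 in the shortest, with a median of -0.09. Beyond the removal of length trends, the part of transcript length in these values was not tested. With those trends removed, the log2 change over all 6 libraries was -0.09 for SOX10 and -0.31 for MC1R. The median of all tested genes was -0.20 in that setting.

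**Figure D3:**
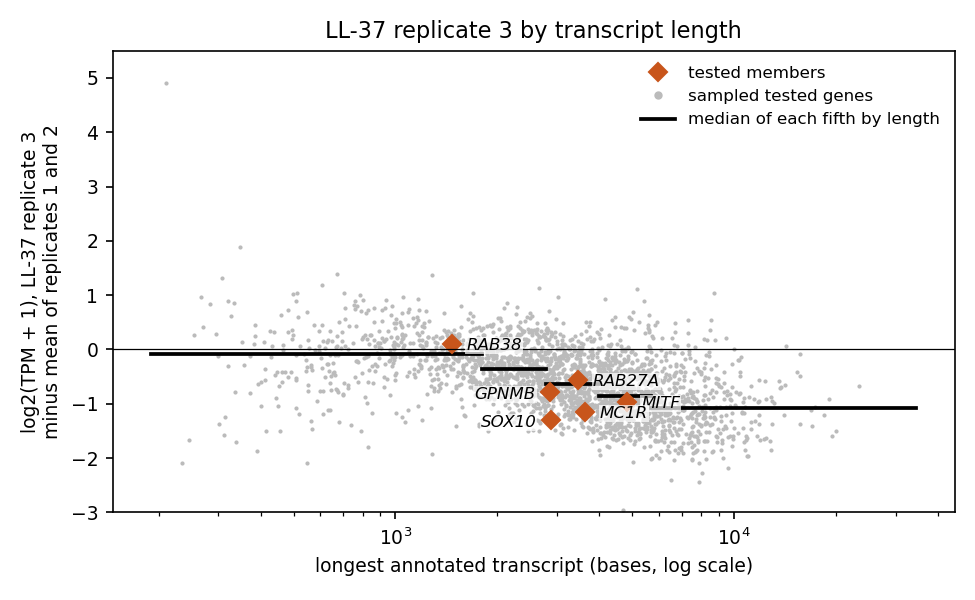
Difference in log2(TPM + 1) between LL-37 replicate 3 and the mean of LL-37 replicates 1 and 2 (vertical axis) by the longest annotated transcript in bases (log axis), for the 6 tested members (diamonds) and 2500 sampled tested genes (dots), with the median of each of 5 length bins as a bar. The medians step down from -0.09 to -1.07, and SOX10, at -1.30, lies below the bar of its own bin, at -0.63.

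The other genes of the pathway were taken from 6 lists with 86 genes, of which 68 were tested. By limma, 0 passed with or without LL-37 replicate 3. With all libraries, 1 higher and 2 lower of the 68 reached an unadjusted p under 0.05, against 2.52% of all tested genes (0.66% higher and 1.86% lower). Without LL-37 replicate 3 there were 6 higher and 5 lower, or 16.2%, against 9.01% of all tested genes (4.92% higher and 4.1% lower). The median log2 change of the 68 was -0.25 over the 6 libraries and -0.02 when LL-37 replicate 3 was left out. All tested genes had -0.20 and 0.00. Separate ranges were seen for 2 higher and 15 lower of the 68, or 25%, against 12.4% of all tested genes. Leaving that library out gave 12 higher and 17 lower, or 42.6%, against 25.1%.

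Among 13 other pigment genes, 7 were tested. The 6 that were not are TYRP1, OCA2, SLC45A2, SLC24A5, GPR143 and SLC24A4, and they are named here with their values known. The highest of them, TYRP1, was 1.39, 0.8 and 0.71 TPM in the LL-37 libraries and 0.68, 1 and 0.95 TPM in the Ctrl libraries, and SLC24A4 was listed at 0 throughout. The 2 most abundant genes of this list have wider roles: the tetraspanin gene CD63 was 1147 ± 202.6 TPM with LL-37 and 1044 ± 47.8 TPM in Ctrl, and BACE2, the protease that cuts PMEL, was 64.7 ± 14.7 and 71.3 ± 2.39 TPM. Both differences turned when LL-37 replicate 3 was left out, the log2 change of CD63 being 0.12 with it and -0.02 without it, and that of BACE2 -0.16 and 0.04. ATP7A, which supplies copper to TYR, was 4.84, 4.04 and 2.01 TPM in the LL-37 libraries and 5.59, 5.07 and 6.3 TPM in the Ctrl libraries, without overlap. APOE was 15.3 ± 1.03 and 18.1 ± 1.56 TPM (SD, n = 3 each), also without overlap. These 2 were the only genes of the list with separate ranges, 28.6% of the 7 tested, against 12.4% of all tested genes. Without LL-37 replicate 3 the shares were 42.9% and 25.1%.

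The machinery that builds and moves melanosomes, which other cells use for related organelles, was present: 21 of its 22 genes were tested. RAB7A was 227.6 ± 47.8 TPM with LL-37 and 248.9 ± 8.74 TPM in Ctrl, and BLOC1S1 was 227.6 ± 68.9 and 187.3 ± 14.9 TPM. Both differences rested on LL-37 replicate 3, at 173.0 TPM for RAB7A and 306.9 TPM for BLOC1S1. The log2 change was -0.15 with it and 0.03 without it for RAB7A, and 0.24 and 0.01 for BLOC1S1. VPS33A, at 19.1 ± 2.47 and 23.7 ± 1.49 TPM, and MREG, at 3.01 ± 0.127 and 3.87 ± 0.597 TPM (SD, n = 3 each), were the 2 whose groups did not overlap, and both were lower with LL-37. This was 9.52% of the 21, below the 12.4% of all tested genes. MLPH, the partner that joins RAB27A to the motor MYO5A, was 0.94, 0.67 and 0.23 TPM in the LL-37 libraries and 0.81, 0.43 and 0.49 TPM in the Ctrl libraries, and was named after its values were seen.

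Of 18 regulators of the lineage, 13 were tested. CREB1, the factor that binds the cyclic AMP element shown above, was 8.19, 5.36 and 6.12 TPM in the LL-37 libraries and 10.1, 10.1 and 9.97 TPM in the Ctrl libraries. All LL-37 libraries lay below all Ctrl libraries, and LL-37 replicate 3 was not the lowest. Its log2 change was -0.57 ± 0.20 (SE; limma, adjusted p = 0.739) and -0.53 (limma, adjusted p = 0.310) without LL-37 replicate 3. EDNRB, the endothelin receptor gene of the lineage, was 9.73 ± 2.34 TPM with LL-37 and 12.6 ± 0.350 TPM in Ctrl (SD, n = 3 each), without overlap. CTNNB1, the gene of beta-catenin, was 124.0 ± 17.5 and 143.5 ± 4.52 TPM, also without overlap. The log2 change was -0.37 with and -0.18 without LL-37 replicate 3 for EDNRB, and -0.22 and -0.10 for CTNNB1. Together with CREB1 they made 3 of 13 genes with separate ranges, or 23.1%, all lower with LL-37. Of all tested genes 12.4% had separate ranges, 2.13% higher and 10.3% lower. Without LL-37 replicate 3 the shares were 38.5% of the regulators and 25.1% of all tested genes. ERBB3, a neuregulin receptor gene, was 165.7, 151.7 and 46.5 TPM in the LL-37 libraries and 143.7, 122.8 and 137.8 TPM in the Ctrl libraries, so that, as for SOX10, LL-37 replicates 1 and 2 lay above and replicate 3 below all Ctrl libraries. KIT was listed at 0 throughout. Of the relatives of MITF, named after their values were seen, TFE3 was 11.1 to 29.8 TPM with LL-37 and 26.0 to 29.6 TPM in Ctrl, TFEB was 0.69 to 1.64 and 1.56 to 1.92 TPM, and TFEC did not exceed 0.12 TPM.

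Of 18 further genes reported as MITF targets, 13 were tested. ACP5, a lysosomal phosphatase gene, was 56.4 ± 4.72 TPM with LL-37 and 58.8 ± 3.51 TPM in Ctrl, and ASAH1, the acid ceramidase gene, was 46.3 ± 5.53 and 54.2 ± 1.73 TPM. TBX2 was 8.17, 7.56 and 3.19 TPM in the LL-37 libraries and 8.24, 8.44 and 9.29 TPM in the Ctrl libraries. CEACAM1 was 1.38, 1.58 and 0.52 TPM in the LL-37 libraries and 1.94, 1.85 and 2.02 TPM in the Ctrl libraries. For both, the groups did not overlap and LL-37 was lower, with log2 changes of -0.48 for each, and of -0.12 for TBX2 and -0.24 for CEACAM1 without LL-37 replicate 3. The list also held genes that were higher with LL-37 without overlap, named after their values were seen. PIR, an iron-binding nuclear protein gene, was 37.7, 35.3 and 44.9 TPM in the LL-37 libraries and 29.6, 32.8 and 28.95 TPM in the Ctrl libraries, a log2 change of 0.35 and, without LL-37 replicate 3, of 0.26 (limma, adjusted p = 0.739 and 0.374). BCL2A1, a survival gene of the BCL2 family, was 5.76, 5.09 and 5.26 TPM in the LL-37 libraries and 4.96, 4.01 and 4.74 TPM in the Ctrl libraries. ASAH1 and CAPN3 were also lower without overlap, CAPN3 being named after its values were seen. CAPN3 was 1.24, 1.23 and 1.3 TPM in the LL-37 libraries and 1.71, 1.99 and 2.14 TPM in the Ctrl libraries. Its log2 change was -0.38 with and -0.40 without LL-37 replicate 3 (limma, adjusted p = 0.739 and 0.474). In all, 2 targets were higher and 4 lower with separate ranges, so that the list did not move one way. This was 46.2% of the 13 tested, against 12.4% of all tested genes (2.13% higher and 10.3% lower). Without LL-37 replicate 3 there were 3 higher and 4 lower, or 53.8%, against 25.1% of all tested genes. TRPM1 and ABCB5, named after their values were seen, did not exceed 0.03 TPM.

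In the identity and dedifferentiation lists, all of 8 dedifferentiation genes and 6 of 7 identity genes were tested. CSPG4, a melanoma surface proteoglycan gene, was 240.6, 214.5 and 56.1 TPM in the LL-37 libraries and 162.2, 151.2 and 172.4 TPM in the Ctrl libraries, the same order of libraries against Ctrl as for SOX10. Its log2 change was -0.18 ± 0.53 (SE) over the 6 libraries and 0.49 when LL-37 replicate 3 was left out (limma, adjusted p = 0.0846). MCAM was 115.6, 111.2 and 52.5 TPM in the LL-37 libraries and 107.9, 100.04 and 122.8 TPM in the Ctrl libraries. Its log2 change was -0.32 over the 6 libraries and 0.04 without LL-37 replicate 3. S100A1 was 58.95 ± 3.52 and 71.3 ± 10.2 TPM and PRAME 64.9 ± 6.36 and 76.6 ± 1.66 TPM, both without overlap. The log2 change was -0.26 with and -0.22 without LL-37 replicate 3 for S100A1, and -0.24 and -0.16 for PRAME. Separate ranges were held by 33.3% of the 6 tested identity genes, against 12.4% of all tested genes. Without LL-37 replicate 3 the shares were 66.7% and 25.1%. Among dedifferentiation genes, TNC was 246.1, 242.3 and 69.8 TPM in the LL-37 libraries and 244.4, 222.7 and 246.9 TPM in the Ctrl libraries, with a log2 change of -0.56 over the 6 libraries and 0.04 if LL-37 replicate 3 is left out. FOSL1 was 126.1, 104.3 and 55.7 TPM in the LL-37 libraries and 90.4, 80.8 and 84.5 TPM in the Ctrl libraries. LL-37 replicates 1 and 2 lay above and replicate 3 below all Ctrl libraries, and the FOSL1 log2 change was 0.08 over the 6 libraries and 0.43 without LL-37 replicate 3 (limma, adjusted p = 0.892 and 0.162). LOXL2, at 16.8 ± 7.21 TPM with LL-37 and 26.7 ± 2.13 TPM in Ctrl (SD, n = 3 each), was lower with LL-37 without overlap between the groups. Its log2 change was -0.74 over the 6 libraries and -0.33 if LL-37 replicate 3 is left out. Of the 8 dedifferentiation genes, 25% had separate ranges, against 12.4% of all tested genes. Without LL-37 replicate 3 the shares were 62.5% and 25.1%.

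**Figure D4:**
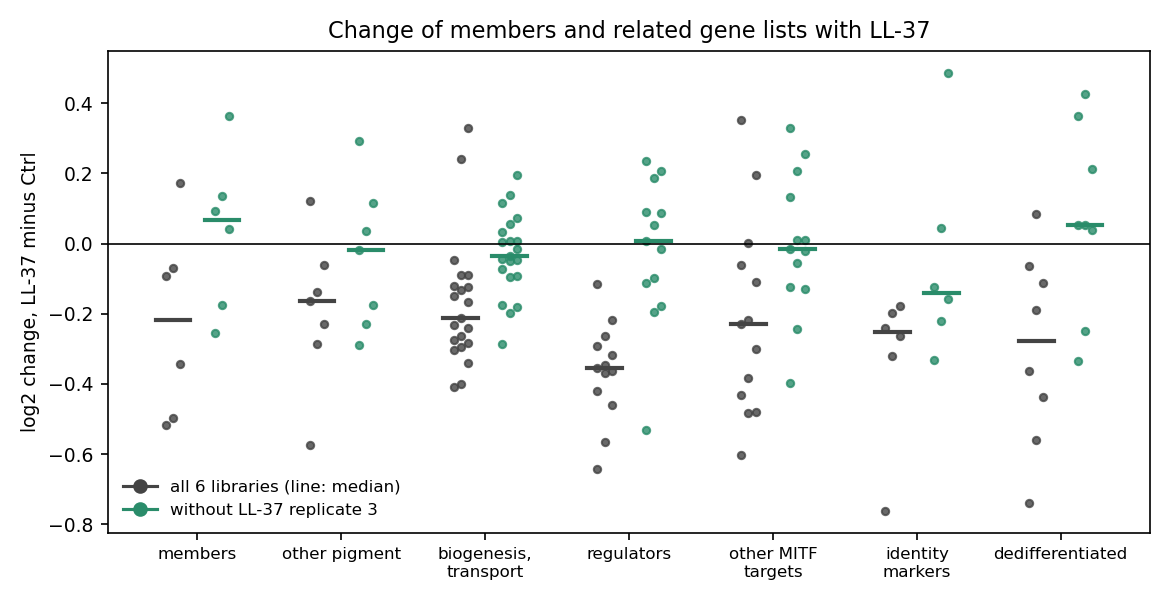
Log2 change, LL-37 minus Ctrl, of each tested gene of the members and of the 6 related lists, with all 6 libraries (grey, left) and without LL-37 replicate 3 (green, right), and list medians as bars. With all libraries the medians lie between -0.35 (regulators) and -0.16 (other pigment genes), and without that library between -0.14 and 0.07.

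The genes whose pattern over the 6 libraries was most like that of MITF were FGF2, FAM171A1, TAF2, TMEM30A and JAM3, with a root mean square difference between centred log2(TPM + 1) profiles of 0.0185 to 0.0348. For SOX10 they were AXL, SMTN, ALDH1A3, MT-ND2 and RIPK4, at 0.0225 to 0.0471. All 10 were lowest in LL-37 replicate 3, as MITF, SOX10 and 73.5% of all tested genes were, and being chosen for a like profile fixes this. AXL, a receptor tyrosine kinase gene of the dedifferentiation list, was 51.2, 45.8 and 19.3 TPM in the LL-37 libraries and 38.2, 34.1 and 40.2 TPM in the Ctrl libraries. FGF2, a growth factor gene, was 6.28, 6.23 and 2.63 TPM in the LL-37 libraries and 7.76, 6.32 and 7.43 TPM in the Ctrl libraries.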

How the data were processed

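RNA was made into stranded mRNA libraries and sequenced as paired ends, per the labels' protocols and the series text. The human values were deposited as TPM, and the submitters' processing notes name the build GRCh38 but no aligner or quantifier. TPM share a fixed total, so that a shift in abundant genes moves all others, and they keep no depth, so that no counting interval can be given. Samples were grouped by title. Human identifiers were named with a table that matched 62541 of 63140 rows. Transcript lengths and positions came from GENCODE 29, with a length for 96.4% of tested genes.

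Values were analysed as log2(TPM + 1) in limma 3.58.1 (R 4.3.3), two-sided, with an intensity trend and no block, for genes that reached 1 TPM in 3 or more of 6 libraries. The added 1 understates changes of low genes. The members and lists were chosen with earlier results of these data known. Named genes were all members, the 2 most abundant genes of each related list, the 2 with the largest change without overlap between groups, any past the threshold, and the 5 nearest in pattern to MITF and SOX10. Not every gene the rule names is reported here. Alternatives were other pseudocounts, filters, scalings, removal of each library's length trend by lowess, a replicate block, no intensity trend and each library left out.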

Additional observations from a re-analysis of the deposited data

How the results depend on the processing

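The count of 0 members and 0 related genes past the threshold held in every setting that was run for it. Over all genes, leaving out 1 library at a time gave 0 to 17 calls, with the 17 arising without LL-37 replicate 3. Removing length trends as well gave 18, a setting chosen after seeing the data. The other settings gave 0 genes. MITF and GPNMB were lower and RAB38 higher with LL-37 in every setting, though the sizes moved: the log2 change ran from -0.66 to -0.17 for MITF, from -0.66 to -0.25 for GPNMB and from 0.02 to 0.41 for RAB38. With each library left out, the log2 change ran from -0.33 to 0.37 for SOX10, from -0.56 to 0.041 for MC1R and from -0.23 to 0.093 for RAB27A, and all 3 turned positive without LL-37 replicate 3. Without that library they were 0.37, 0.041 and 0.093 with median-of-ratios scaling and 0.37, 0.044 and 0.095 with length trends removed, both also chosen after seeing the data. With all libraries, median-of-ratios scaling gave 0.17 for SOX10 and 0.093 for RAB27A, and quantile normalization gave 0.13 for RAB27A. The median over all tested genes was 0.00 with that scaling, against -0.20 without it. The filter of 5 TPM left out MITF and RAB27A. The correlation of deviations was 0.09, -0.20 and -0.17 for same-numbered libraries and ran from -0.21 to 0.25 for differently numbered ones. With 3 libraries per group, these values cannot decide whether replicate numbers pair the libraries. With a replicate block 0 genes passed, and the limma adjusted p of GPNMB was 0.837. TPM hold no depth, so levels near 0 carry no limit.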
